A study of Caenorhabditis elegans with 2 samples.

Results

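The genes described here encode splicing factors and Sm proteins of Caenorhabditis elegans, and the values are the binding of the homeobox protein CEH-44 at their promoters. The members were all protein-coding genes of the Ensembl annotation of WBcel235 called rsp, snr, prp, sap, uaf, sfa, snrp or mog plus a number. This naming rule was chosen with earlier results of these data known. This gave 44 of 19985 coding genes: 7 snr, 8 rsp, 13 prp, 3 uaf or sfa and 2 sap genes, 4 RNA helicase genes (mog-1, mog-4, mog-5 and snrp-200), and 7 other mog and snrp genes. Binding was measured by ChIP-seq, the sequencing of DNA that precipitates with a protein, here with an antibody against GFP. The worms were of strain RW12327, in which CRISPR had placed a TY1::EGFP::3xFLAG tag in the endogenous ceh-44 gene (st12327, chromosome III). There was 1 group of 2 biological replicates, made of whole fourth-stage larvae 49 hours old that had been synchronised by starvation at the first larval stage, and no second condition. All cells of the animal were pooled, so the cell type in which a site was bound is unknown.

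Splicing removes introns from pre-messenger RNA. The spliceosome is built from small nuclear ribonucleoproteins (snRNPs), in which a ring of Sm proteins surrounds a small nuclear RNA. SR proteins bind exons and help to choose splice sites, U2AF and SF1 recognise the end of the intron and its branch point, and RNA helicases drive the rearrangements of each splicing cycle. In worms a spliced leader is also joined to many messages in trans. CEH-44 belongs to the CUT homeobox family and is known as a protein of the nervous system, whereas the core splicing factors are used by most cells.

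The larger of the deposited series lists held 1027 peaks out of 115557 ranked candidates, with a median signal of 75.96. Replicate 1's own list held 387 peaks and replicate 2's own list 525. The signal is the authors' value for each peak, on a scale that the sources used here do not state. Read depth is unknown, so no interval could be set on a signal. A gene is called bound here when a peak summit fell in its promoter window, the 1000 bp before and the 200 bp after its most upstream start. With 2 replicates and no comparison group, all values are descriptions and carry no test.

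Of the 44 splicing genes, 8 were bound (18.2%), against 598 of all 19985 coding genes (2.99%), or 3.71% of the 16131 coding genes with any ranked candidate in the window. The 8 genes had 7 peaks, since rsp-1 and rsp-2 share 1. The bound genes were the Sm protein genes snr-4 and snr-1, the SR protein genes rsp-1, rsp-2 and rsp-6, the helicase gene mog-4, and prp-19 and prp-40. By group, 2 of 7 Sm genes (28.6%), 3 of 8 SR genes (37.5%), 1 of 4 helicase genes (25%) and 2 of 13 prp genes (15.4%) were bound. None of the 3 uaf and sfa genes, the 2 sap genes or the 7 other mog and snrp genes was bound. With groups this small, 1 gene more or less moves a share by a large amount, and no order among the Sm, SR and helicase groups can be read from them.

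**Figure D1:**
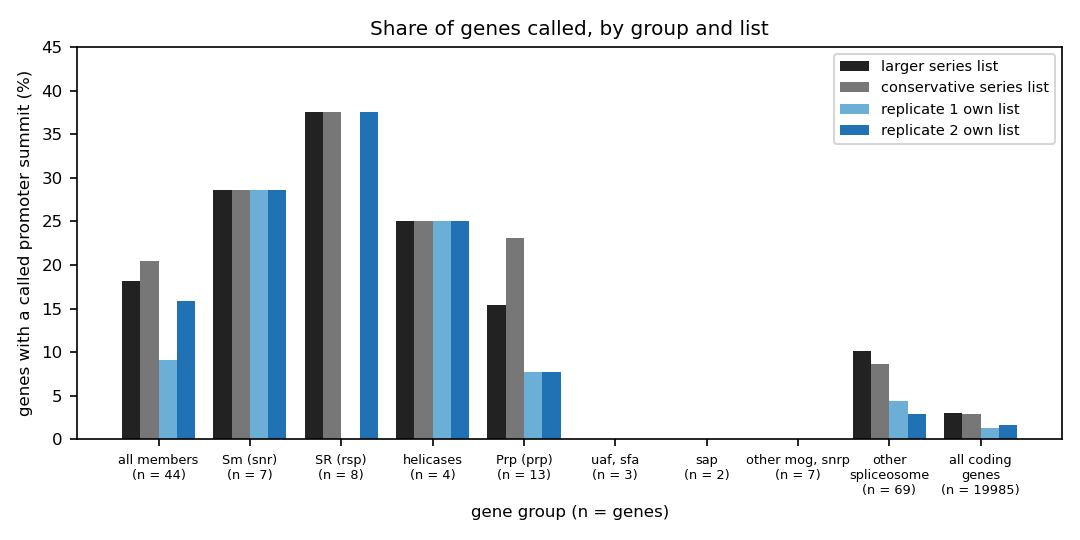
The share of genes in each group with a called promoter summit (percent, bars from 0) in the larger series list, the conservative series list and each replicate's own list. The SR genes stand at 37.5% in both series lists and in replicate 2's own list and at 0% in replicate 1's own list, while Sm and helicase genes have the same share in all 4 lists.

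In the replicates' own lists, 4 members were bound in replicate 1 (all coding genes 1.32%) and 7 in replicate 2 (all coding genes 1.61%). The 4 of replicate 1, which are mog-4, prp-19, snr-1 and snr-4, were among the 7 of replicate 2, which also held rsp-1, rsp-2 and rsp-6. So 4 of the 8 bound members (50%) were in both replicates' own lists, against 29.1% of all bound coding genes. One member, prp-40, was in neither (12.5%), against 34.1% of all bound coding genes. The conservative series list (all coding genes 2.94%) held the same 8 genes and prp-8.

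The sequences within 50 bp of the member summits are given, except at mog-4. They are the sites to which the values below belong, and show what these sites share and where they differ. All are from the plus strand of ce11, from the RefSeq copy of the assembly: prp-19 at chrIII:5172626-5172726, mog-4 at chrII:14561778-14561823, snr-4 at chrV:11980023-11980123, snr-1 at chrIV:17087615-17087715, rsp-1 with rsp-2 at chrII:11453154-11453254, rsp-6 at chrIV:7791315-7791415 and prp-40 at chrIII:9521856-9521956. Capitals mark TGCGTC, its reverse complement GACGCA, and ATTAAT, words taken up with the motifs. For mog-4 only the 46 bases just before a repeat are shown. They begin more than 50 bp before the summit at 14561848 and end short of it, since the summit lies in the repeat.
prp-19: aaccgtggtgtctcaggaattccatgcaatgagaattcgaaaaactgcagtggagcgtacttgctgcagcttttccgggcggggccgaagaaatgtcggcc
mog-4, before the repeat: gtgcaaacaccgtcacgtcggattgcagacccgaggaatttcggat
snr-4: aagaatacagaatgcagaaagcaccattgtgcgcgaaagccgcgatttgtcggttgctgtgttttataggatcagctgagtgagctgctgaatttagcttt
snr-1: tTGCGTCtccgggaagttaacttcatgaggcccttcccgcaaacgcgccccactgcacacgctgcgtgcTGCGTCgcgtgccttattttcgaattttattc
rsp-1 and rsp-2: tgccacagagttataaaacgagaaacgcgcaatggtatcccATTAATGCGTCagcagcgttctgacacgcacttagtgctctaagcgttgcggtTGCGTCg
rsp-6: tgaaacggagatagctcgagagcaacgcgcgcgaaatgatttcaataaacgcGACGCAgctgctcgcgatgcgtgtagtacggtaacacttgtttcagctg
prp-40: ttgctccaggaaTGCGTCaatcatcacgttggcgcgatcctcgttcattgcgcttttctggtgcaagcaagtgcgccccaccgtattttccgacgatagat

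The count depended on how a summit was given to a gene. With each summit given to the nearest coding start alone, 5 members were bound (all coding genes 2.17%), since prp-19, snr-1 and rsp-2 each lost their peak to a neighbour. With 500 bp upstream 7 were bound (all coding genes 2.24%), with 2000 bp 9 (4.17%), and with any annotated transcript start 8 (3.33%). With any base of the peak in the window 8 were bound (3.24%), with peaks at or above the median signal 7 (1.62%), and with peaks within 250 bp of a tRNA, snoRNA or snRNA gene left out 7 (2.55%), the one lost being snr-4.

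Below the threshold, the promoters were compared by their highest ranked candidate. A candidate was found in the promoter of 39 of the 44 members. Its median signal was 32.2 over these 39 genes (quartiles 26.7 and 42.4), against 23.8 over the 16131 coding genes with a candidate (quartiles 17.4 and 31.6). For the 31 members with a candidate that were not bound the median was 29.7, against 23.3 for the 15533 coding genes of the same kind. These medians cover only genes with a candidate. The 5 members without one in this ranked list were prp-3, prp-4, prp-9, prp-31 and snrp-40.2. Of these, prp-3, prp-4 and prp-31 belong to the U4/U6 snRNP, prp-9 to U2, and snrp-40.2 to U5. Encoding an snRNP component is not particular to these 5, since bound members such as snr-1 and snr-4 do so too. Whether genes of the U4/U6 snRNP differ from the other members was not tested.

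**Figure D2:**
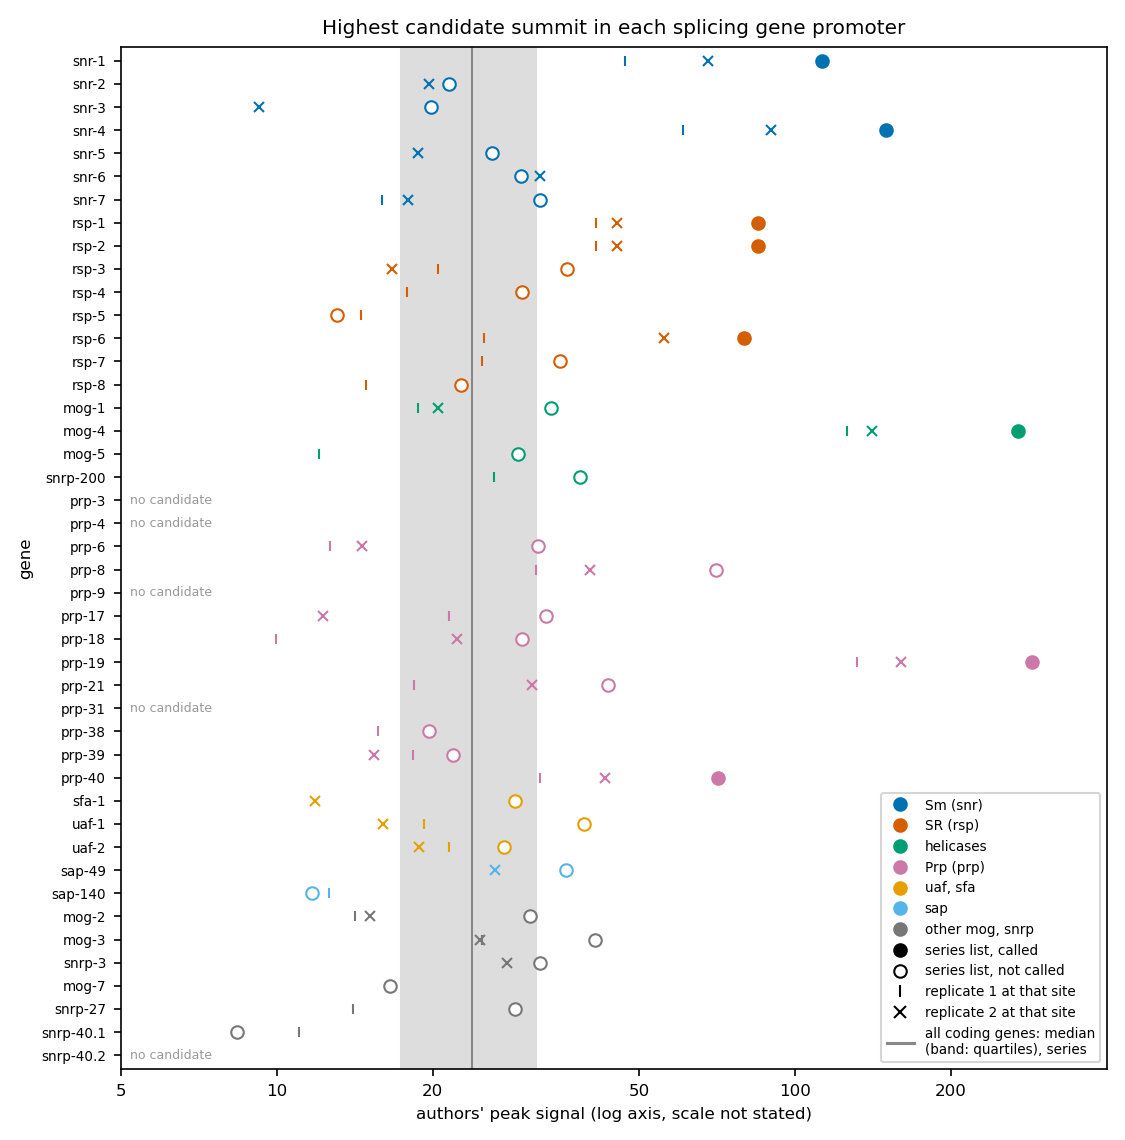
Signal of the highest candidate summit in each member's promoter (log axis), by gene: circles are the larger series ranked list, filled where the gene was called bound, bars and crosses are replicates 1 and 2 at the same site, and the grey band and line are the quartiles and median of all coding genes. The 8 filled circles lie between 70.9 and 287, prp-8 is the open circle beside the lowest of them at 70.4, and the next open circle is prp-21 at 43.6.

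Sm proteins form the ring common to the spliceosomal snRNPs, and snr-1 to snr-7 each encode 1 of its subunits. The gene snr-4 (SmD2; WBGene00004917, chromosome V, 11978508 to 11979723, minus strand) had a peak at 11979945 to 11980200 with signal 149.5, ranked 58 of the 1027. Its summit lay 350 bp upstream of the start. Replicate 1 gave a signal of 60.9 there and replicate 2 a signal of 90.05. The gene snr-1 (SmD3; WBGene00004914, chromosome IV, 17088049 to 17088946, plus strand) had a peak of signal 113 at 17087537 to 17087792, ranked 164, with its summit 384 bp upstream. The start of snx-13 was nearer to this summit, at 227 bp, and which gene the peak belongs to was not tested. Replicate 1 gave 47.04 and replicate 2 gave 67.95. Both peaks were in both replicates' own lists, and both were higher in replicate 2.

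The other 5 Sm genes had only weak candidates. Their highest series signals were 32.2 for snr-7 (SmG), 29.6 for snr-6 (SmE), 25.98 for snr-5 (SmF), 21.5 for snr-2 (SmB) and 19.9 for snr-3 (SmD1). All lie well below the 113 of snr-1, and snr-2 and snr-3 lie below the median of 23.8 for all coding genes. Replicate 1 had a candidate at that site for snr-7 alone, at 15.9. Replicate 2 had 17.9 at snr-7, 32.2 at snr-6, 18.7 at snr-5, 19.7 at snr-2 and 9.23 at snr-3. For snr-7 and snr-5 the site lay 992 and 958 bp upstream, near the far edge of the window. So the peaks in the windows of the SmD2 and SmD3 genes stood at ranks 58 and 164. The genes of the other 5 subunits had series signals of 19.9 to 32.2, against quartiles of 17.4 and 31.6 over all coding genes. The snr-4 peak, alone among the members, lay beside a small RNA gene: its summit was 45 bp from the snRNA gene T11F9.15 and inside the noncoding RNA gene C52E4.14. Whether that peak belongs to snr-4 or to these genes was not tested. None of the other 6 summits lay inside an annotated gene of any kind, and the nearest tRNA, snoRNA or snRNA gene to any of them was 7989 bp away, at prp-19.

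SR proteins carry RNA-binding domains and a tail rich in arginine and serine. The genes rsp-1 (WBGene00004698, chromosome II, 11453362 to 11455864, plus strand) and rsp-2 (WBGene00004699, 11451441 to 11452955, minus strand) point away from each other across a gap of 406 bp. One peak lay in that gap, at 11453076 to 11453331, with signal 84.8 and rank 398. Its summit was 158 bp upstream of rsp-1 and 249 bp upstream of rsp-2. The replicates were close, at 41.3 in replicate 1 and 45.4 in replicate 2, but only in replicate 2 was the peak in the replicate's own list. The −log10 of the irreproducible discovery rate (IDR), for which the lists require at least 2, was 1.81 in replicate 1 and 2.13 in replicate 2. So replicate 1 missed the threshold narrowly, at nearly the same signal.

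The gene rsp-6 (WBGene00004703, chromosome IV, 7789847 to 7791229, minus strand), which encodes the worm counterpart of the human SR protein SRp20, had a peak at 7791237 to 7791492 with signal 79.8 and rank 459. The summit lay 136 bp upstream, the closest to its gene among the called summits of the members. Replicate 2 gave 55.97 and replicate 1 gave 25.07, a ratio of 2.23. Over the 1011 series peaks with a candidate in both replicates this ratio had a median of 1.24 and quartiles of 0.972 and 1.63. The rsp-6 ratio was thus above the upper quartile and below the 95th percentile, which was 2.52. The −log10 IDR of this site was 2.59 in replicate 2 and 0.294 in replicate 1. The other 5 SR genes were not called. Their highest candidates were 36.2 at rsp-3 (the SF2/ASF counterpart), 35.3 at rsp-7, 29.7 at rsp-4 (the SC35 counterpart), 22.7 at rsp-8 and 13.04 at rsp-5. Replicate 1 had 20.4 at the rsp-3 site, 24.9 at rsp-7, 17.8 at rsp-4, 14.9 at rsp-8 and 14.5 at rsp-5. Replicate 2 had a candidate at the rsp-3 site alone, at 16.7. No SR gene was bound in replicate 1's own list.

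A second head-to-head pair of members, snr-3 and rsp-5, lies on the same chromosome across a gap of 403 bp, much like the 406 bp between rsp-2 and rsp-1. The series candidate in that gap had a signal of 13.04, lay in both windows and was the highest for rsp-5. The highest in the window of snr-3 was 19.9, but it lay 747 bp upstream, beyond the gap. Neither gene was called in any list, so of the 2 pairs 1 was bound.

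The spliceosomal helicases use ATP to remodel RNA and protein contacts. The gene mog-4 (WBGene00003392, chromosome II, 14552504 to 14561599, minus strand), the counterpart of the yeast helicase PRP2, had a peak of signal 269.6 at 14561784 to 14561849, ranked 8. Replicate 1 gave 126 and replicate 2 gave 141, ranks 8 and 11 in their own lists, and the summit lay 249 bp upstream of the start. No other coding gene shared it. The other helicase genes were not called in any list. Their highest series candidates were 38.5 at snrp-200 (BRR2, which unwinds U4 from U6), 33.8 at mog-1 (PRP16) and 29.2 at mog-5 (PRP22). At these sites replicate 1 had 26.2 at snrp-200, 18.8 at mog-1 and 12.1 at mog-5, and replicate 2 had a candidate at mog-1 alone, 20.4. All lie far below both values at mog-4.

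The mog-4 peak was short and lay on the edge of repeated sequence. It spans 66 bp, against 122 bp at prp-19 and 256 bp at the other member peaks. The mog-4 summit is the base before the last of the peak. From position 14561824 on, 24 bp before the summit, the sequence is repeated: of the 72 words of 30 bases within 50 bp of the summit, 46 (63.9%) occur more than once in the genome, each at 3 to 9 places. For the other 6 member peaks this number was 0. The word of 30 bases that starts at the mog-4 summit has 6 other copies. Of these, 3 also lay in called series peaks, with signals of 116.9 and 82.4 on chromosome I and 94.9 on chromosome III. One more copy, on chromosome II, had a candidate of signal 38.2 that was not called, and the remaining 2 had no candidate. None of these 3 called peaks lay in a coding promoter. Reads wholly inside repeated sequence cannot be assigned to 1 copy, and how far they set the mog-4 signal was not tested.

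Prp proteins are named after yeast mutants in pre-mRNA processing. The gene prp-19 (WBGene00020423, chromosome III, 5169933 to 5172045, minus strand) encodes a ubiquitin ligase that helps to activate the spliceosome. It had the highest signal of the members, 287, at 5172610 to 5172731 (rank 6), with 132 in replicate 1 and 160.4 in replicate 2. This summit, however, was 631 bp upstream of prp-19, the farthest among the bound members, and only 44 bp upstream of the divergent gene K10D2.5. It also fell in the window of emb-1, which encodes a subunit of the anaphase-promoting complex, 763 bp upstream of its start. The gene prp-40 (WBGene00014218, chromosome III, 9522075 to 9525454, plus strand), whose yeast counterpart belongs to the U1 snRNP, had the weakest called peak, 70.9 at 9521778 to 9522033 (rank 615). Replicate 1 gave 32.2 and replicate 2 gave 42.9. Its summit lay 169 bp upstream of prp-40 and 446 bp upstream of clu-1 on the other strand.

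The gene prp-8 encodes the core protein of the U5 snRNP that holds the catalytic RNAs. It was not in the larger list, while prp-40 was, at nearly the same signal. The other splicing genes sna-2 (67.6) and usp-39 (56.6) were in that list with lower signals. The prp-8 candidate lay at 8163903 to 8164158 on chromosome III. Its summit was 342 bp upstream of prp-8 and 648 bp upstream of bath-42, whose window also held it. The signal was 70.4, with 31.7 in replicate 1 and 40.2 in replicate 2. Each of these was a little below its counterpart at prp-40. The −log10 IDR was 2.34 for prp-40 and 1.39 for prp-8 in the larger list's ranked file, and 2.65 and 2.58 in the conservative list's file, so prp-8 was called only in the conservative list. Of the remaining 10 prp genes, 4 had no candidate and 6 had one that was not called. The highest was 43.6 at prp-21, whose product is a subunit of the U2 snRNP, with 18.4 in replicate 1 and 31.1 in replicate 2. The others were 33.1 at prp-17 and 29.7 at prp-18, both of the second catalytic step, 31.9 at prp-6 of the tri-snRNP, 21.9 at prp-39 and 19.7 at prp-38.

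The genes for recognition of the intron's end were not bound in any list. Their highest candidates were 39.2 at uaf-1 (the large subunit of U2AF), 28.8 at sfa-1 (SF1) and 27.4 at uaf-2 (the small subunit of U2AF). The candidates lay 661 to 880 bp upstream of the starts. The sap genes had 36.07 at sap-49, a subunit of the U2 snRNP, and 11.7 at sap-140. Of the other mog and snrp genes, mog-3 had the highest candidate, 41.2 at 62 bp upstream, with a −log10 IDR of 1.499. Its replicate values were close to each other, 24.9 in replicate 1 and 24.7 in replicate 2. The others were 32.2 at snrp-3, 30.9 at mog-2, whose product belongs to the U2 snRNP, 28.9 at snrp-27, 16.5 at mog-7 and 8.37 at snrp-40.1, the lowest of all members. The 5 highest candidates among members not called in the larger list were thus those of prp-8, prp-21, mog-3, uaf-1 and snrp-200.

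**Figure D3:**
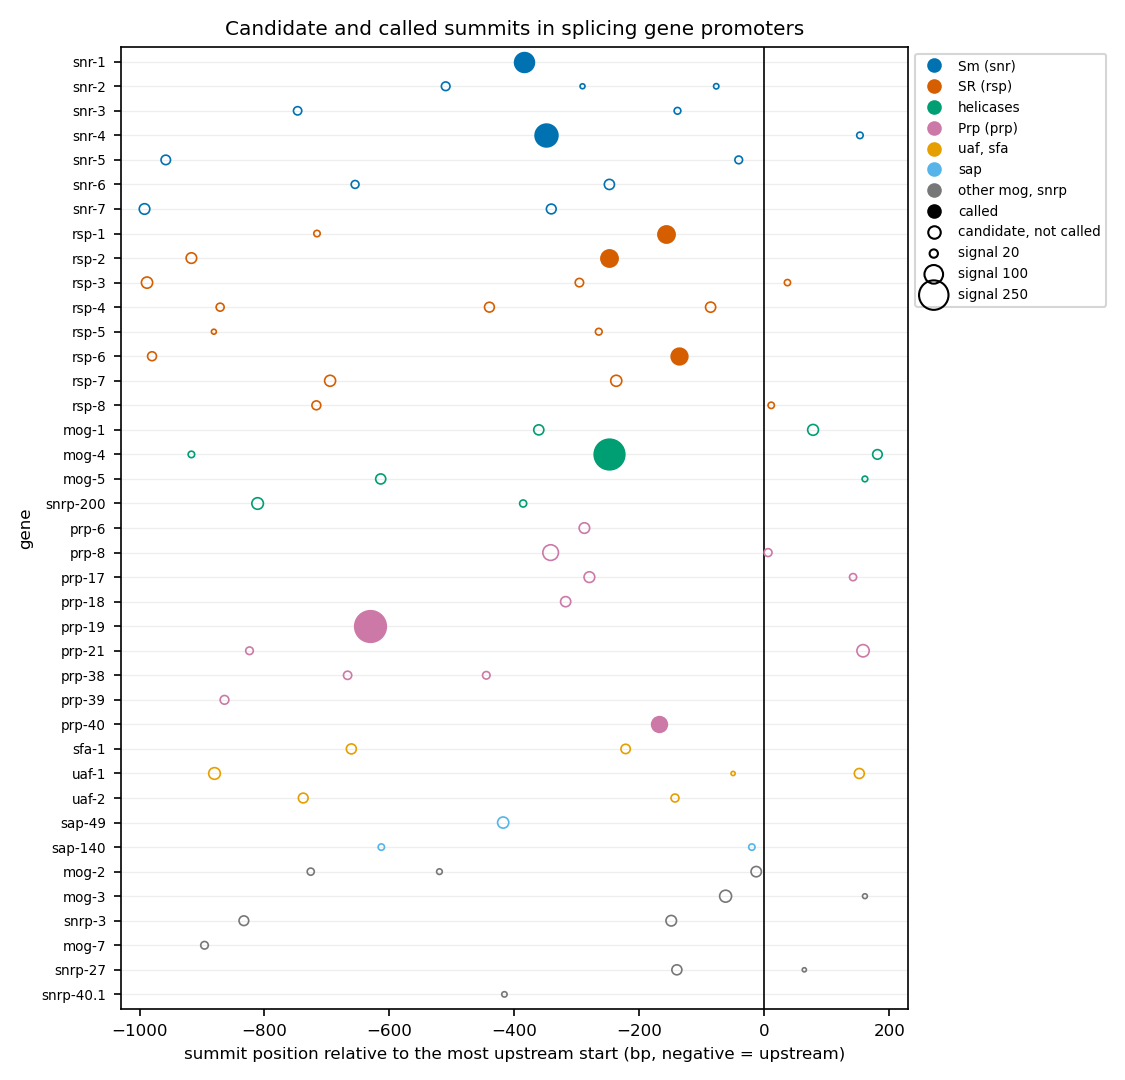
Position of each candidate summit in the promoters of the 39 members with one, relative to the start (bp, negative upstream). Circle area follows signal, and filled circles were called. The 8 filled circles lie between 136 and 631 bp upstream, and none lies downstream of a start.

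The called summits lay from 136 to 631 bp upstream, with a median of 249 bp, against a median of 291 bp upstream over all bound coding genes (quartiles 162 and 514 bp). The neighbours of these sites were often coding genes. For 5 of the 8 bound members (62.5%) another coding gene's window held the same summit, against 321 of 598 bound coding genes (53.7%). For prp-19, snr-1 and rsp-2 the other gene's start was the nearer one: K10D2.5 at 44 bp, the sorting nexin gene snx-13 at 227 bp and rsp-1 at 158 bp. The remaining 5, mog-4, snr-4, rsp-1, rsp-6 and prp-40, had the nearest coding start.

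Gene order upstream also differed among the members. The next coding gene upstream lay on the opposite strand for 28 members, of which 6 were bound (21.4%), against 4.44% of the 9234 coding genes placed in this way. It lay on the same strand for 16 members, of which 2 were bound (12.5%), against 1.75% of 10745 coding genes. In C. elegans, closely spaced genes on 1 strand are often transcribed together from the promoter of the first. A called summit lay in the promoter window of the preceding same-strand gene, and not in the gene's own, for 3 of these 16 members (18.8%), against 2.97% of the 10745 coding genes. They were prp-3, prp-38 and prp-39, a comparison made after their values were seen. The 2 shares are not matched for spacing: the preceding gene lay within 500 bp for 12 of the 16 members and for 4114 of the 10745 coding genes. The gene prp-3 starts 344 bp behind smrd-1, and that summit lay over 5000 bp upstream of prp-3. The gene prp-38 starts 106 bp behind plrg-1, which encodes a protein of the PRP19 complex and was itself bound, and that peak (signal 123) lay 2101 bp upstream of prp-38. The gene prp-39 starts 90 bp behind hmgs-1, and a peak of signal 64.01 in the windows of hmgs-1 and F25B4.4 lay 2095 bp upstream of it. Whether any of these pairs is transcribed together is not stated in the annotation used here. No member had a called summit inside the gene outside the promoter window.

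By chromosome, 0 of 8 members on I were bound (all coding genes there 4.20%), 3 of 13 on II (3.22%), 2 of 12 on III (4.55%), 2 of 6 on IV (3.26%), 1 of 4 on V (1.88%) and 0 of 1 on X (1.65%). With so few members on each, no difference between chromosomes can be read from these counts.

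**Figure D4:**
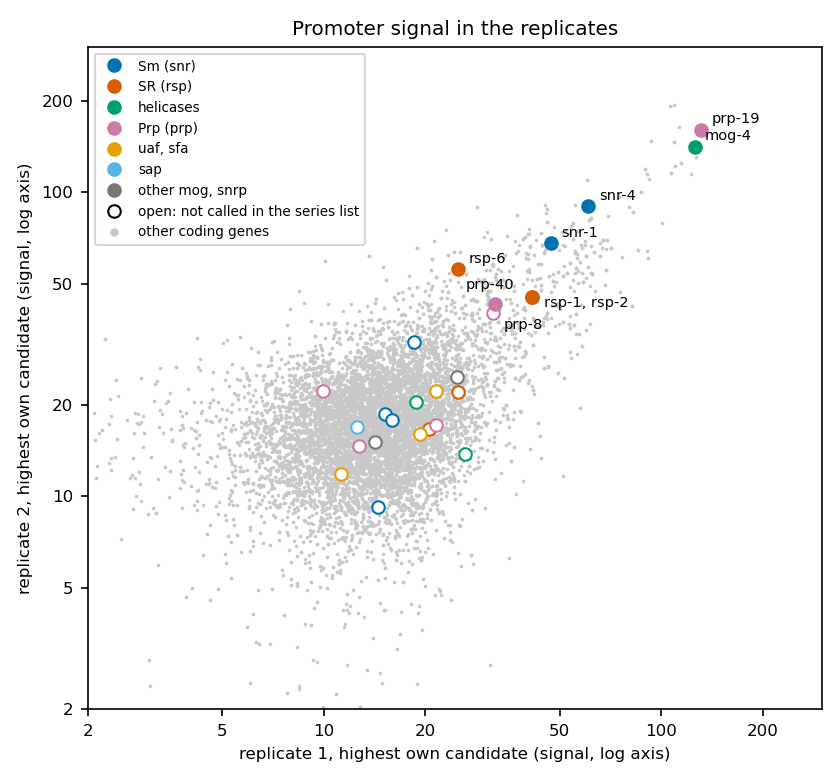
Highest candidate signal in each promoter in replicate 1 (horizontal) and replicate 2 (vertical), both on log axes, each from the replicate's own ranked list. Coloured circles are the 26 members with a candidate in both, filled where called in the larger series list, and grey points are other coding genes. The 8 called members lie at the upper right, with rsp-6 to the left of the others and rsp-1 and rsp-2 as 1 circle.

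All 7 member peaks had a higher signal in replicate 2, with ratios from 1.10 at rsp-1 and rsp-2 to 2.23 at rsp-6. Most series peaks were also higher in replicate 2, with a median ratio of 1.24 and a lower quartile of 0.972. The highest own candidates of the replicates had a Spearman's rho of 0.78 over the 26 members with one in both. Over the 8107 coding genes with one in both, rho was 0.37. Genes share the same libraries and are not independent, and without the 8 bound members rho was 0.39 over the remaining 18.

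Words were counted on both strands in windows of 101 bp at the member summits and in windows of the same length at other summits. The words ATCGAT and ATCAAT, of the kind that CUT homeobox proteins are known to bind, were in none of the 7 member windows. They were in 3.21% and 4.77% of all 1027 series peaks, in 4.28% and 5.18% of the 444 series peaks in coding promoters, and in 3.45% and 9.37% of the 114530 candidates outside the list. The related word ATTAAT was in the rsp-1 and rsp-2 window alone, and in 2.34% of series peaks and 2.93% of those in coding promoters. The word GAGAGA was in no member window, against 14.8% of series peaks and 17.3% of those in coding promoters. The consensus B box of tRNA genes was in none either, against 10.5% of series peaks and 4.50% of those in coding promoters. With 7 windows, 0 of 7 cannot be told apart from shares of this size. The word TGCGTC, chosen after these windows were read, was in 4 of the 7 (snr-1, rsp-1 with rsp-2, rsp-6 and prp-40), at 2 places in snr-1 and in rsp-1 with rsp-2. In the rsp-1 and rsp-2 window 1 of them overlaps ATTAAT by 1 base. It was in 9.44% of all series peaks, in 15.1% of those in coding promoters, and in 2.77% of candidates outside the list. The 3 windows without it were those of prp-19, mog-4 and snr-4, which hold the 3 highest signals of the members. Because the word was picked from these same 7 windows, nothing about signal can be read from this split. The G and C content of the member windows ran from 44.6 to 55.4%, with a median of 51.5%, against 50.5% for series peaks and 38.6% for candidates outside the list.

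Other genes of splicing, outside the naming rule, were taken from a fixed list of 76 names, of which 69 were in the annotation. Of these, 7 were bound (10.1%), against 2.99% of all coding genes. The highest was plrg-1 (signal 123, 223 bp upstream, with 51.8 in replicate 1 and 74.7 in replicate 2). Next were lsm-7 (signal 102, 49.6 and 54.8 in replicates 1 and 2), which encodes a subunit of the LSm ring on U6, and smn-1 (signal 98.1, 58.04 and 42.7), whose protein loads Sm rings onto small nuclear RNAs. The smn-1 summit lay 131 bp upstream of smn-1, inside the microRNA gene cel-mir-4932, and 85 bp upstream of klp-16, the nearest coding start. The lsm-7 summit lay 210 bp upstream of lsm-7 and 89 bp upstream of dnc-1, again the nearest coding start. Weaker peaks included those at smu-1 (70.3), sna-2 (67.6), which acts in trans-splicing, and usp-39 (56.6), of the tri-snRNP. The sna-2 summit lay 598 bp upstream of sna-2 and 89 bp upstream of T13F2.6, the nearest coding start. Of the 7, plrg-1 and lsm-7 were in both replicates' own lists and smn-1 in that of replicate 1, and 4 were in neither, among them smu-1, sna-2 and usp-39. Over the 64 of these genes with a candidate the median of the highest was 26.7, between the 32.2 of the members and the 23.8 of all coding genes.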

How the data were processed

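Peak lists were used as deposited, on the ce11 assembly per the labels. Aligner, caller and depth were not given in the sources used here. Signal is a deposited value of the authors for each peak, with no stated scale. The deposited −log10 of the global IDR estimates how far candidates ranked at least as high fail to repeat, and the thresholded lists hold values of at least 2 (IDR 0.01). Summits were set against Ensembl release 115 genes with Python 3.11.15, pandas 2.3.3, numpy 2.4.6 and scipy 1.17.1, and the assignment was tested on simulated data. Replicate values are the highest candidate in that replicate's own ranked list that overlaps the series peak by at least 1 bp. The 2 series ranked files hold 4 more signal columns that name no sample and were not used. Sequences came from the RefSeq copy of WBcel235, read with Biopython 1.88. Named were all members in the Sm, SR and helicase groups, all called members, the 5 highest uncalled ones, members called in another list or window, other splicing genes with a called summit (1 is not reported here), and neighbours at called peaks. The members and lists were chosen with earlier results of these data known, and the word TGCGTC, the comparison of preceding genes and the omission of peaks near small RNA genes after seeing the data. Alternatives were the conservative list, each replicate's list, upstream limits of 500 and 2000 bp, any annotated start, the nearest start, any base of the peak, and stronger peaks alone.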

Additional observations from a re-analysis of the deposited data

How the results depend on the processing

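Of the 44 members, 8 were bound in the larger list, against 2.99% of all coding genes. The count was 9 with the conservative list, which added prp-8 (all coding genes 2.94%), or with 2000 bp upstream, which added sap-140 (4.17%). The sap-140 summit also lay in the window of cgh-1. Settings that gave 7 were 500 bp upstream (2.24% of all coding genes) and peaks at or above the median signal (1.62%). Any annotated start (3.33% of all coding genes) or any base of the peak (3.24%) gave 8. With each summit given to the nearest coding start the count was 5 (2.17% of all coding genes). With each replicate left out in turn, through the other's own list, the count ran from 4 to 7 for the members. It ran from 0 to 3 for the SR genes and stood at 2 for the Sm genes. For the 69 other splicing genes, of which 7 were bound in the larger list, it ran from 2 to 3. These 2 and 3 genes were 2.9% (replicate 2's list) and 4.35% (replicate 1's list), against 1.61% and 1.32% of all coding genes. With the nearest start, 1 Sm gene (14.3%) and 4 other splicing genes (5.8%) were bound, against 2.17% of all coding genes. With peaks at or above the median signal, 3 other splicing genes were bound (4.35%), against 1.62% of all coding genes. A further setting, chosen after seeing the data, left out peaks within 250 bp of tRNA, snoRNA or snRNA genes. It left 7 members and 1 Sm gene bound, against 2.55% of all coding genes. The helicase count was 1 throughout, the gene being mog-4, and no setting left out peaks in repeated sequence. The median of the highest candidates was 29.7 with 500 bp upstream (all coding genes 21.6), and 18.7 to 22.1 in the replicates' own ranked lists (all coding genes 13.8 and 16.5). Depth is unknown and control data were not analysed here, so how far either limits a signal was not tested. No paired analysis was possible because there was 1 group.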
